A study of Mus musculus with 6 samples.

Results

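The genes described here were the 7 globin genes *Hbb-y*, *Hbb-bh1*, *Hbb-bs*, *Hbb-bt*, *Hba-x*, *Hba-a1* and *Hba-a2*, chosen by name from the 55401 genes of the count table and read in every library. RNA was sequenced from whole mouse embryos at midgestation (E10.5), with 3 WT libraries and 3 5C libraries. 5C embryos carried an array of 5 copies of the microRNA gene *Mir483* in place of the endogenous gene, which lies within an intron of *Igf2*, and WT embryos were littermates with the unmodified locus. The array was placed by recombinase-mediated cassette exchange in embryonic stem cells. It was passed on by chimeric males, so the edited allele was the paternal one. Every library was a pool of 2 male embryos of a C57BL/6J background. The pools are therefore the replicates, and a whole-embryo library mixes all tissues. In such bulk samples, fewer red cells and less globin RNA per cell cannot be told apart.

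Haemoglobin is a tetramer of alpha-like and beta-like globin chains, each holding a heme. In the mouse, the first red cells arise in the yolk sac as a primitive wave that circulates as large nucleated cells and makes the embryonic chains ζ (*Hba-x*), εy (*Hbb-y*) and βh1 (*Hbb-bh1*). The adult chains α (*Hba-a1*, *Hba-a2*) and β (*Hbb-bs*, *Hbb-bt*) are made in the definitive red cells that later leave the fetal liver, and primitive red cells also make adult alpha chains, so the switch is less sharp at the alpha locus than at the beta locus.

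The deposited totals ranged from 6357343 to 19151368 counts per library, and 3 counts, taken as the floor of detection, amounted to 0.157 to 0.479 CPM (counts per 1000000 counts of the genes tested, after scaling). Floors and intervals given here cover counting error only. *Mir483* (chr7:142654924-142654996 in GRCm38, minus strand), the edited gene, had 0.577, 0.429 and 0.319 CPM in WT replicates 1 to 3 and 5.15, 4.35 and 2.56 CPM in 5C replicates 1 to 3. The genotypes did not overlap for this gene, in the direction that the labels give, with a log2 fold change of 3.05 (SE 0.36), although the quasi-likelihood test of edgeR gave an adjusted p of 0.169. Marker lists chosen for tissues that surround the embryo varied in level between libraries. Whether the embryo itself made part of this RNA was not tested. All 10 genes of a yolk sac visceral endoderm list had at least 1 count in every library, and their sum ranged from 285 to 6778 CPM in WT and from 198 to 1354 CPM in 5C. Each of the 10 was lower in 5C, and 2 had an unadjusted p under 0.05, which 6.02% of all genes tested had. This direction rested on WT replicate 1: mean sums were 2543 CPM (WT) and 589 CPM (5C), and without that library the WT mean fell to 425 CPM, with 9 of the 10 genes higher in 5C. For 7 genes of decidual killer cells and decidua the sum ranged from 10.49 to 49.3 CPM in WT and from 12.6 to 55.7 CPM in 5C, with *Prf1* at 0 in WT replicate 1. The 5 of these that passed the count filter were higher in 5C, and 3 had an unadjusted p under 0.05, against the same 6.02%. The sum of 5C replicate 2, 12.6 CPM, lay within the WT range.

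The globin genes lie in a beta cluster and an alpha cluster. In GRCm38 the minus strand of chromosome 7 holds *Hbb-bt* (chr7:103812524-103813996), *Hbb-bs* (chr7:103826534-103828096), *Hbb-bh1* (chr7:103841637-103843164) and *Hbb-y* (chr7:103851749-103853216). The plus strand of chromosome 11 holds *Hba-x* (chr11:32276400-32278116), *Hba-a1* (chr11:32283511-32284465) and *Hba-a2* (chr11:32296489-32297298). No exon of the 7 genes was shared with another gene on either strand. The coding part of the opening exon is shown for each gene, because it shows which genes a short read can tell apart. Sequences run 5′ to 3′ on the coding strand from the start codon, with capitals where a beta-like gene differs from *Hbb-bs* and where an alpha-like gene differs from *Hba-a1*.
Hbb-y (chr7:103853061-103853152): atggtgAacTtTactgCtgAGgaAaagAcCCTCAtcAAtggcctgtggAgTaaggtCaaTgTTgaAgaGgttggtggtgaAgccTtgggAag
Hbb-bh1 (chr7:103843019-103843110): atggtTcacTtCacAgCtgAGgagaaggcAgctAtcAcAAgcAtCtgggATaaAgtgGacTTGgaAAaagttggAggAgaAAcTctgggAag
Hbb-bs (chr7:103827784-103827875): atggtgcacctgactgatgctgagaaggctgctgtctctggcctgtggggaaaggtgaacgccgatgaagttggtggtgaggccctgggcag
Hbb-bt (chr7:103813778-103813869): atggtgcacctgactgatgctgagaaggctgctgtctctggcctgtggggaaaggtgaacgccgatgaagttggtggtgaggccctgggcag
Hba-x (chr11:32276664-32276758): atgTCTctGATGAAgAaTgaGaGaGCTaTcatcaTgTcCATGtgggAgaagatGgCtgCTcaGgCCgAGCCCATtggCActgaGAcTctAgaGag
Hba-a1 (chr11:32283707-32283801): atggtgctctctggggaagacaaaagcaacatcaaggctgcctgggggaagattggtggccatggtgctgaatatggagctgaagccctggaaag
Hba-a2 (chr11:32296524-32296618): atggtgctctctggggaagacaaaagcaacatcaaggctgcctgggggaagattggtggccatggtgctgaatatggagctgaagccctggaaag

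Within this stretch of 92 bases, *Hbb-y* differed from *Hbb-bs* at 26 positions and *Hbb-bh1* at 29. *Hba-x* differed from *Hba-a1* at 45 of 95 positions. *Hbb-bs* and *Hbb-bt* were identical here, and so were *Hba-a1* and *Hba-a2*. Over the whole coding sequence each adult pair differed at a single base. *Hbb-bs* and *Hbb-bt* differed by C417T out of 444 bases, and *Hba-a1* and *Hba-a2* by C381T out of 429 bases, counted from the A of the start codon and written with the base of *Hbb-bs* or *Hba-a1* before that of its partner. Both differences fall on the last base of a codon and leave its amino acid unchanged, so both genes of a pair code for the same chain. The differing base is the capital in each of the following 41-base stretches.
Hbb-bs (chr7:103826672-103826712): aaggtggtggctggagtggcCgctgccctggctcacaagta
Hbb-bt (chr7:103812663-103812703): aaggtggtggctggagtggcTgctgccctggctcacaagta
Hba-a1 (chr11:32284323-32284363): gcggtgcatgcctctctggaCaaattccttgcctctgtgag
Hba-a2 (chr11:32297140-32297180): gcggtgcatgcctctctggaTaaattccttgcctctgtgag

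These differences decide how the counts can be read. Reads were 40 bases long, and a read that aligns equally well in more than 1 place is left out of STAR's gene counts. In the GENCODE transcripts, between the RefSeq start and end of each gene, all 580 windows of 40 bases of *Hbb-y*, all 571 of *Hbb-bh1* and all 562 of *Hba-x* occurred in no other gene. For *Hbb-bs* and *Hbb-bt* this held for 198 of 589 and 200 of 591 windows, because the remainder occurred in both genes. For *Hba-a1* it held for 40 of 499 windows and for *Hba-a2* for 56 of 512, the others being shared between the pair and in part with the pseudogene *Hba-ps4*. The counts of the 4 adult genes thus come from a small part of each transcript and are uncertain as levels, whereas a comparison of libraries uses the same part in each library.

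The 120 bases before the RefSeq transcription start (GRCm38.p6) are shown for genes whose levels are contrasted below, with capitals for matches to CACCC, to CCAAT and to the GATA motif (AGATAA or TGATAA) on either strand. Promoter sequence was matched for 6 of the 7 genes, *Hbb-bh1* being the gene without one.
Hbb-y (chr7:103853208-103853327, minus strand): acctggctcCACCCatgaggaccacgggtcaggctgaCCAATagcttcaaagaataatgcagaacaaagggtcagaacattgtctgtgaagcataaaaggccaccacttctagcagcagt
Hbb-bs (chr7:103827929-103828048, minus strand): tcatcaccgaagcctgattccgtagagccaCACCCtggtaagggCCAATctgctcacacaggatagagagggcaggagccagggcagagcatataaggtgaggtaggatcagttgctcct
Hbb-bt (chr7:103813924-103814043, minus strand): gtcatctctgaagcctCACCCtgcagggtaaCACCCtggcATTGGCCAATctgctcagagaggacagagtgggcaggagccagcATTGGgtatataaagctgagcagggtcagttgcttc
Hba-x (chr11:32276480-32276599, plus strand): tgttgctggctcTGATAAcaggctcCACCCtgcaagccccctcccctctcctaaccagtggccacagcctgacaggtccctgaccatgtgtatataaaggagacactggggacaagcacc
Hba-a1 (chr11:32283552-32283671, plus strand): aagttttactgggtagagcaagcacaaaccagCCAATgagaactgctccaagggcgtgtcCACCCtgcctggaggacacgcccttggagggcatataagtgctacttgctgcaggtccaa

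CACCC, the core of the site that KLF1 binds, occurred in these 120 bases in 6 of 6 globin promoters, against 31.7% of the 32851 promoters in the table. CCAAT occurred in each of them but *Hba-x*, against 21.3% of all promoters. The GATA motif occurred within 120 bases in *Hba-x* alone, against 7.63% of all promoters. Within 250 bases it occurred in each of the 6 but *Hbb-bt*, against 16.6% of all promoters. The promoters of *Hba-a1* and *Hba-a2* were 95.1% identical when aligned over these bases, and those of *Hbb-bs* and *Hbb-bt* were 74.6% identical, so the adult beta genes differ more before their starts than in their coding sequence. These matches describe letters in a window and were not tested as binding sites.

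Embryonic beta-like RNA made up most of the globin counts. *Hbb-y* had 6442, 5434 and 6906 CPM in WT replicates 1 to 3 and 9330, 6368 and 4764 CPM in 5C replicates 1 to 3. Both the highest and the lowest library were 5C, so the WT values lay inside the 5C range. *Hbb-y* was among the 3 genes with the highest counts in every library. *Hbb-bh1* had WT values of 3182, 2869 and 3826 CPM and 5C values of 4750, 3095 and 2557 CPM. It followed the same order over the libraries, with 5C replicate 1 at the top and 5C replicate 3 at the bottom. The ratio of *Hbb-y* to *Hbb-bh1* counts therefore stayed within 1.81 and 2.06 over the 6 libraries, a range of 1.14-fold, while the level of each gene ranged over 1.96-fold and 1.86-fold.

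**Figure D1:**
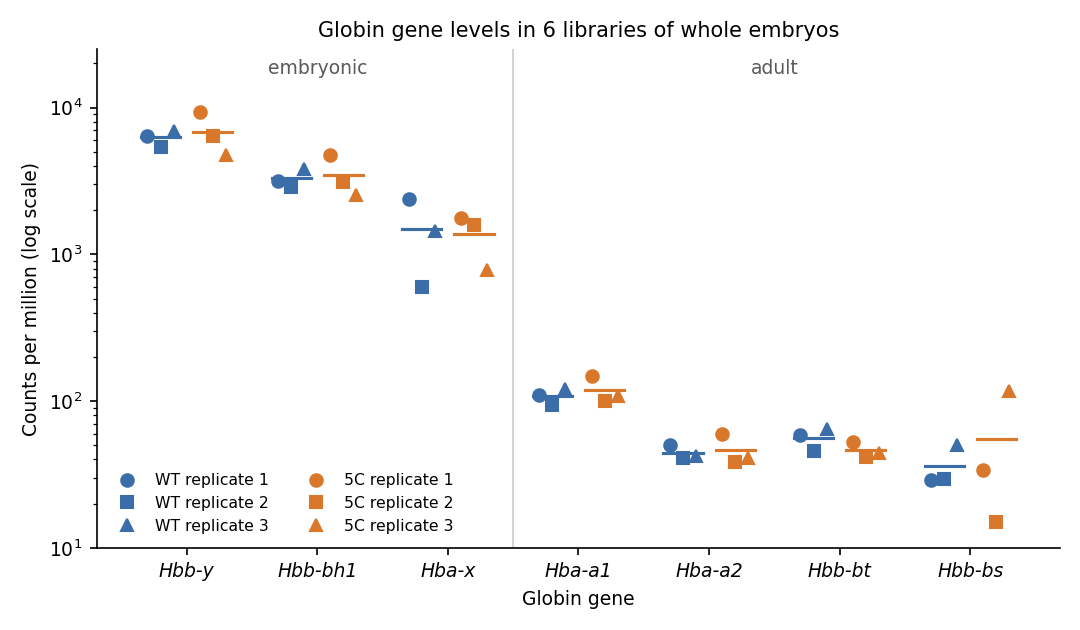
CPM (log axis) of the 7 globin genes in the 6 libraries; points are libraries, with the replicate given by the shape and the genotype by the colour, and bars are genotype means. The 3 embryonic genes lie at 595 CPM or above and the 4 adult genes at 147 CPM or below in every library, on a scale that takes no account of how much sequence reads can be placed in, and WT and 5C points overlap for all 7 genes.

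*Hba-x*, the embryonic alpha-like gene, varied more. It had 2403, 595 and 1439 CPM in WT replicates 1 to 3 and 1762, 1584 and 787 CPM in 5C replicates 1 to 3, a range of 4.04-fold. WT replicate 1 was the highest library and WT replicate 2 the lowest, so the 5C libraries lay inside the WT range. The ratio of *Hba-x* to *Hbb-y* counts was 0.373, 0.110 and 0.208 in WT and 0.189, 0.249 and 0.165 in 5C, a range of 3.41-fold with both extremes in WT. WT replicate 1, the library with the highest ratio, also had the highest summed level of yolk sac markers (6778 CPM), but WT replicate 2, the lowest, had 285 CPM, above the 216 and 198 CPM of 5C replicates 1 and 2. Whether yolk sac tissue has a part in the *Hba-x* differences was not tested.

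The adult alpha genes varied less between libraries than *Hba-x*. *Hba-a1* had 110, 93.4 and 120 CPM in the WT libraries, against 147, 99.5 and 108 CPM in the 5C libraries. *Hba-a2* had 50.3, 40.7 and 42.4 CPM in WT replicates 1 to 3, with 60.0, 38.4 and 40.8 CPM in those of 5C. Both genes were highest in 5C replicate 1, the library with the most embryonic globin RNA, and the other 5C libraries lay within or just below the WT range. The ratio of *Hba-a1* to *Hba-a2* counts ranged from 2.19 to 2.83, a 1.29-fold range. This ratio is one of counts over the few windows that distinguish these copies, not a ratio of transcript levels.

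*Hbb-bt* had WT values of 58.6, 45.4 and 64.6 CPM and 5C values of 52.5, 41.5 and 44.5 CPM. The 5C libraries sat low, but 5C replicate 1 was above WT replicate 2, so the genotypes overlapped. *Hbb-bs*, which codes for the same chain, had 29.2, 29.6 and 50.4 CPM in the WT libraries, against 34.1, 15.0 and 116 CPM in the 5C libraries. 5C replicate 3 stood far above the other libraries and 5C replicate 2 was the lowest, with 1635 and 176 counts, so these values are not limited by counting error. Over the 6 libraries *Hbb-bs* ranged over 7.75-fold and *Hbb-bt* over 1.56-fold.

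The balance within the adult beta pair set the same library apart. *Hbb-bs* took 33.3%, 39.5% and 43.8% of the counts of the pair in WT replicates 1 to 3 and 39.4%, 26.6% and 72.4% in 5C replicates 1 to 3. *Hbb-bs* thus took the larger share of counts only in 5C replicate 3, where the exact 95% Clopper-Pearson interval of its share was 70.5% to 74.2%, whereas the interval of WT replicate 3, the next highest, was 40.2% to 47.5%. As a ratio of counts, *Hbb-bs* over *Hbb-bt* was 0.362 to 0.780 in 5 libraries and 2.62 in 5C replicate 3.

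**Figure D2:**
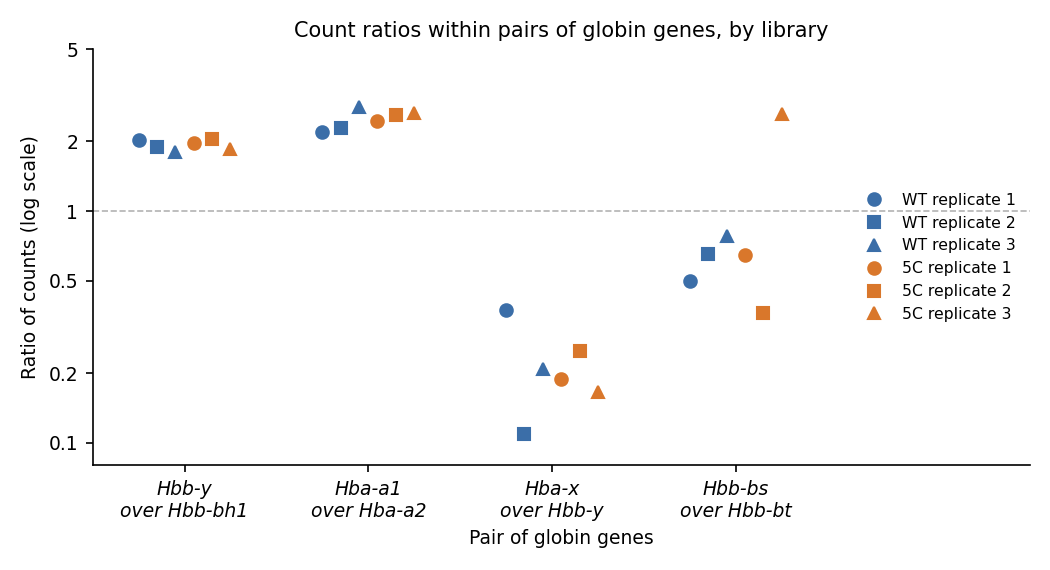
Ratio of counts (log axis) within 4 pairs of globin genes in each library; points are libraries, with shape for the replicate and colour for the genotype, and the dashed line marks equal counts. *Hbb-y* over *Hbb-bh1* and *Hba-a1* over *Hba-a2* stay within 1.14-fold and 1.29-fold, *Hba-x* over *Hbb-y* spreads over 3.41-fold, and *Hbb-bs* over *Hbb-bt* exceeds 1 in 5C replicate 3 alone.

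The other values of 5C replicate 3 stand beside this. Its *Hbb-bt*, *Hba-a1* and *Hba-a2* levels (44.5, 108 and 40.8 CPM) lay within the range of the other libraries, and its *Hbb-y* and *Hbb-bh1* levels were the lowest of the 6. The decidual list summed to 55.7 CPM in this library, the highest value. WT replicate 3 and 5C replicate 1 had sums of 49.3 and 43.2 CPM, with *Hbb-bs* at 50.4 and 34.1 CPM. *Prl8a2* alone gave 43.39 and 31.75 CPM of those 2 sums, and 28.26 CPM of the sum in 5C replicate 3. Each of the other listed decidual genes was highest in 5C replicate 3, such as *Gzmg* at 6.12 CPM against 0.315 to 2.42 CPM elsewhere. The 5 genes of a trophoblast list summed to 7.90 CPM in it, against 1.28 to 5.92 CPM in the other libraries. *Prl3d1* gave 4.70 CPM of that sum, and *Prl2c2* and *Tpbpb* were also highest in it, at 0.854 and 0.142 CPM. *Prl3b1* and *Tpbpa*, at 1.78 and 0.427 CPM, lay within the range of the other libraries. *Car1*, a carbonic anhydrase of definitive red cells, had 5 counts in it and 0 to 2 counts elsewhere, below the floor. The yolk sac list summed to 1354 CPM in it, against 216 and 198 CPM in 5C replicates 1 and 2. In WT replicates 1 to 3 that sum was 6778, 285 and 564 CPM. The part of maternal or extraembryonic tissue in the *Hbb-bs* level of 5C replicate 3 was not tested.

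Levels can be compared between genes once the sequence in which a read can be placed is taken into account. CPM were therefore divided by the number of 40-base windows that only that gene holds and scaled to 1000 windows, which assumes that reads start evenly along a transcript. On this scale *Hbb-y* had 10794 ± 1298 (SD, n = 3) in WT and 11760 ± 3994 in 5C, and *Hbb-bh1* had 5766 ± 855 and 6073 ± 2001. *Hbb-y* exceeded *Hbb-bh1* in each of the 6 libraries, although the lowest *Hbb-y* value, 8213 in 5C replicate 3, was under the highest *Hbb-bh1* value, 8318 in 5C replicate 1.

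The alpha-like genes had no fixed order on this scale. *Hba-a1* had 2695 ± 335 in WT and 2956 ± 641 in 5C, and *Hba-x* had 2632 ± 1610 and 2451 ± 924. These neighbours did not differ beyond their spread, since *Hba-x* ran from 1059 to 4277 and *Hba-a1* from 2335 to 3686. The *Hba-a1* value rests on 40 windows and on the RefSeq start. With all 201 windows that only *Hba-a1* holds in the longer GENCODE transcript, its mean was 536 in WT and 588 in 5C, below *Hba-x* at 1941 and 1808 over its own whole transcript, and below *Hba-a2* at 794 ± 91.0 and 829 ± 211. The adult beta genes came last, with *Hbb-bt* at 281 ± 49.1 in WT and 231 ± 28.4 in 5C and *Hbb-bs* at 184 ± 61.3 and 279 ± 272. *Hbb-bt* and *Hbb-bs* overlapped, whereas the lowest *Hba-a2* value, 686, was above every value of either adult beta gene.

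**Figure D3:**
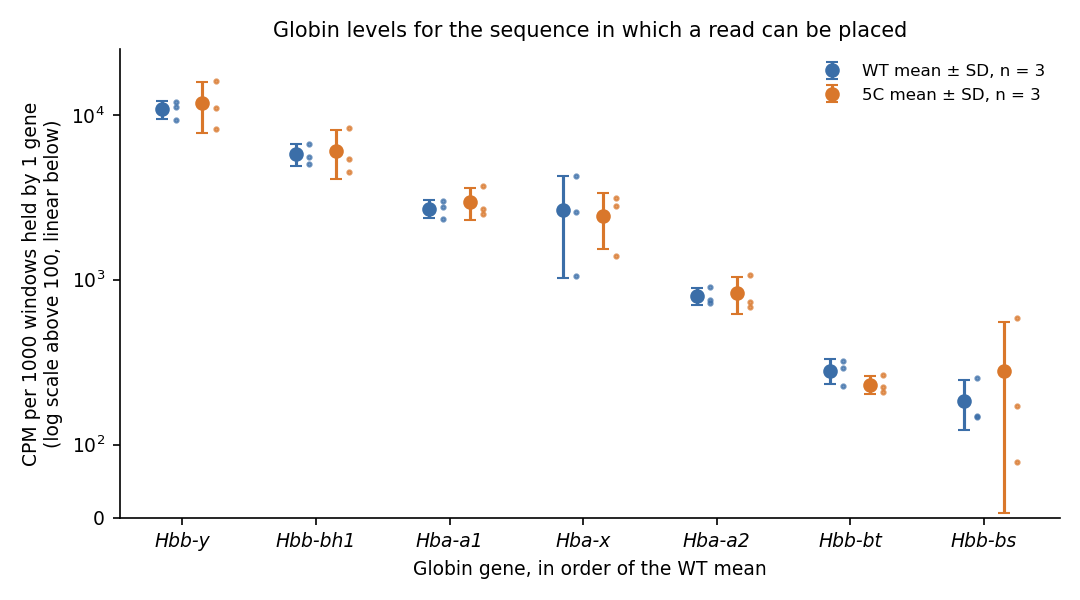
Globin levels as CPM per 1000 windows of 40 bases held by 1 gene (log axis above 100, linear below); large points are genotype means with bars for the SD (n = 3), and small points are libraries. *Hbb-y* and *Hbb-bh1* lead, *Hba-a1* (here over 40 windows) and *Hba-x* overlap, and the adult beta genes are lowest.

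The question the design puts to these genes is whether the *Mir483* array changed globin RNA. All 7 genes passed the count filter. At an adjusted p under 0.05 in edgeR's quasi-likelihood test, 0 of 7 globin genes were called, with 0 of 7 at an unadjusted p under 0.05, and DESeq2 and limma-voom also called 0 of 7. With no count filter, 416 of 33139 genes were called and *Hbb-bs* was 1 of them (log2 fold change 0.65, adjusted p = 2.3e-08 by edgeR), although its genotypes overlapped. Over all 16784 genes tested, 0% passed the adjusted threshold, 6.02% the unadjusted one, and 11.4% had genotypes that did not overlap in CPM. The WT and 5C values overlapped for all 7 globin genes. In 5C, 5 of the 7 were higher and 2 lower, and their median log2 fold change of 0.07 stands against -0.0024 over all genes tested.

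The intervals show what differences remain possible. For *Hbb-y* the log2 fold change was 0.12 (SE 0.20, adjusted p = 0.907 in edgeR's test), and 2 SE on either side reached from -0.28 to 0.53. *Hbb-bh1* gave 0.07, with a range of -0.32 to 0.47, and *Hba-x* gave -0.10, with a wider range of -0.97 to 0.76. *Hba-a1* gave 0.14 (-0.15 to 0.43) and *Hba-a2* 0.06 (-0.27 to 0.39). For *Hbb-bt* the log2 fold change was -0.28 (SE 0.13, unadjusted p = 0.0682, adjusted p = 0.781 in edgeR's test), the smallest p among the globin genes. Its range was -0.54 to -0.0076, and it stayed negative under each alternative tried. For *Hbb-bs* it was 0.63 (SE 0.58, adjusted p = 0.828), with a range of -0.53 to 1.80, and without 5C replicate 3 it was -0.53. These values do not show that the genotypes are alike. Even these ranges hold changes larger than 1.5-fold, for *Hba-x* in both directions and for *Hbb-bs* upward. The lower end for *Hbb-bs*, at -0.53, lies just short of 1.5-fold, so a wider interval could pass it.

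**Figure D4:**
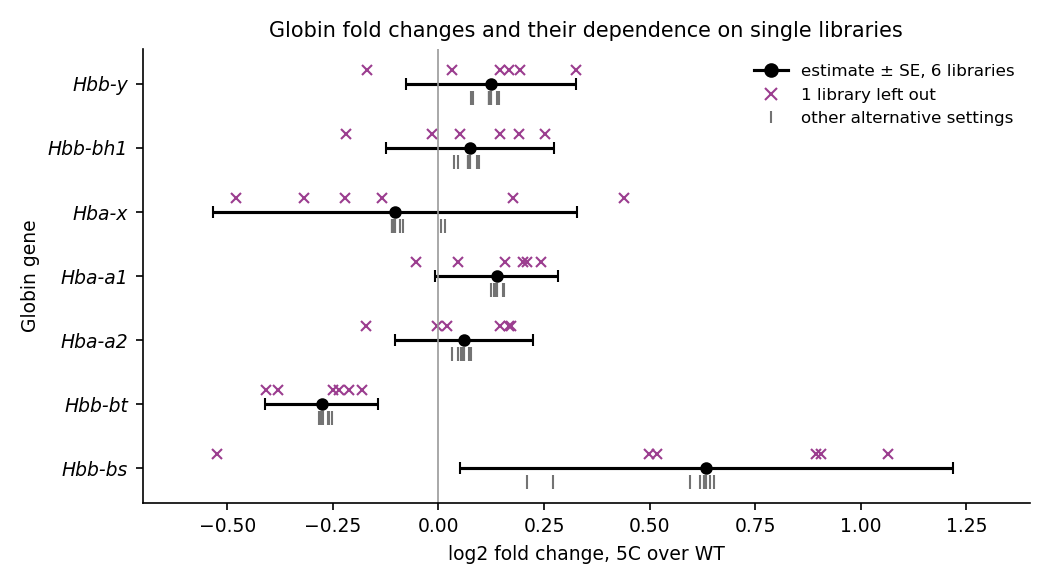
log2 fold change of 5C over WT for the 7 globin genes; black points with bars are estimates ± SE from 6 libraries, crosses leave out 1 library each, and ticks are the other alternative settings. Leaving out a library moves *Hbb-bs* between -0.53 and 1.07 and *Hba-x* between -0.48 and 0.44, while *Hbb-bt* stays below 0.

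Summed over the 7 genes, globin RNA took 1.22%, 0.905% and 1.23% of all counts in WT replicates 1 to 3 and 1.63%, 1.13% and 0.834% in 5C replicates 1 to 3. The 5C libraries held both extremes. On the log2 CPM scale the sum was 13.45 ± 0.25 in WT and 13.49 ± 0.47 in 5C, a difference of 0.04 (exact permutation test, two-sided p = 1). With 3 libraries against 3, this test cannot give a p below 0.10.

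The adult share of beta-like counts, a measure of the embryonic to adult switch that does not depend on library scaling, was 0.903%, 0.896% and 1.06% in WT replicates 1 to 3. It was 0.611%, 0.594% and 2.15% in 5C replicates 1 to 3. 5C replicates 1 and 2 were below every WT library and 5C replicate 3 was above them, so the 5C values enclosed the WT values. The means were 0.953% ± 0.0930 in WT and 1.12% ± 0.894 in 5C, a difference of 0.165 percentage points (exact permutation test, two-sided p = 1). This direction rested on 5C replicate 3: without it the difference was -0.351 percentage points (p = 0.2 in the exact permutation test, the smallest that 3 libraries against 2 allow), and with *Hbb-bt* alone as the adult gene it was -0.112 percentage points (p = 0.3).

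At the alpha locus the adult share of counts was 6.25%, 18.4% and 10.1% in WT replicates 1 to 3 and 10.53%, 8.01% and 15.9% in 5C replicates 1 to 3. The 5C libraries lay within the WT range. The means were 11.6% ± 6.20 and 11.5% ± 4.02, a difference of -0.117 percentage points (exact permutation test, two-sided p = 1). These shares understate the adult alpha genes, most of whose reads cannot be placed. Per window held by 1 gene, the adult share of the alpha-like level was 59.9% ± 14.1 in WT and 61.4% ± 9.06 in 5C, while the adult share of the beta-like level was 2.71% ± 0.260 and 3.15% ± 2.47, so on this scale the adult genes took a larger part at the alpha locus than at the beta locus in both genotypes. With the longer GENCODE transcripts the adult alpha share was 44.5% ± 14.7 in WT and 45.0% ± 9.47 in 5C, and the adult beta share 2.32% ± 0.256 and 2.86% ± 2.44. Over the 6 libraries the lowest adult alpha share, 31.4%, was above the highest adult beta share, 5.68%.

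The balance of alpha-like to beta-like RNA also varied mainly within WT. The log2 ratio of summed counts was -1.92, -3.52 and -2.76 in WT replicates 1 to 3 and -2.85, -2.47 and -3.00 in 5C replicates 1 to 3. The extremes were WT replicates 1 and 2, the libraries with the most and the least *Hba-x*. The difference of the means was -0.037 (exact permutation test, two-sided p = 0.9), and per window held by 1 gene it was -0.020 (p = 0.9 in the exact permutation test), with a log2 ratio of -1.52 ± 0.37 in WT and -1.54 ± 0.10 in 5C.

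Other genes of red cells were read beside the globins. Of 18 red cell membrane genes, 12 were higher and 6 lower in 5C, and of 16 genes of heme synthesis and iron 9 were higher and 7 lower. None passed the adjusted threshold, and 1, *Tfrc*, the transferrin receptor, passed the unadjusted one, which 6.02% of all genes passed (log2 fold change 0.26, adjusted p = 0.781 by edgeR). Median log2 fold changes were 0.06 over the membrane list and 0.04 over the heme list. Together these 34 genes summed to 2507, 2119 and 2607 CPM in WT replicates 1 to 3 and 3164, 2477 and 2001 CPM in 5C replicates 1 to 3. 5C replicate 1 was again the highest library and 5C replicate 3 the lowest, as for *Hbb-y* and *Hbb-bh1*.

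Set against these red cell genes, the summed globin level, which is mostly *Hbb-y* and *Hbb-bh1*, was steady. This does not extend to *Hba-x* or *Hbb-bs* taken alone. The log2 ratio of summed globin RNA to the 34 genes was 2.29, 2.10 and 2.26 in WT and 2.35, 2.18 and 2.07 in 5C, with means of 2.22 ± 0.10 and 2.20 ± 0.14. The difference was -0.015 (exact permutation test, two-sided p = 0.9), and its spread between libraries was smaller than that of the summed globin level. *Alas2*, which makes the committed step of heme synthesis in red cells, had 102, 79.7 and 120 CPM in WT replicates 1 to 3, with 164, 98.3 and 78.5 CPM in those of 5C. *Slc4a1*, the band 3 anion exchanger, had WT values of 186, 111 and 233 CPM and 5C values of 265, 146 and 85.7 CPM. For both genes 5C replicate 1 was highest and 5C replicate 3 lowest.

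As a description over 6 libraries that share their depth and scaling, Pearson's r between log2 levels of *Hbb-y* was 0.98 with *Hbb-bh1*, 0.98 with *Alas2* and 0.93 with *Slc4a1*. *Hba-x* correlated less with *Hbb-y* (0.67), and *Hba-a1* more (0.82). *Hbb-bs* stood apart, with r of -0.39 with *Hbb-y*, 0.16 with *Hbb-bt* and -0.34 with *Slc4a1*. With the summed decidual list r was 0.76 for *Hbb-bs* and 0.63 for *Hba-a1*, but 0.26 for *Hbb-bt* and 0.19 for *Hba-a2*. For the embryonic genes it was 0.16 (*Hbb-y*), 0.32 (*Hbb-bh1*) and -0.096 (*Hba-x*).

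**Figure D5:**
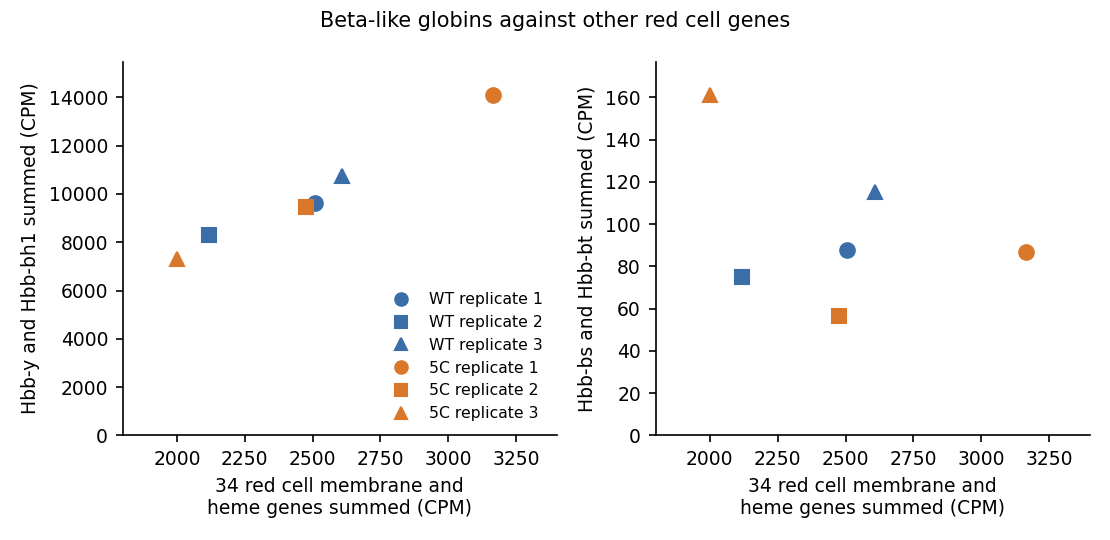
Summed CPM of the embryonic beta-like genes (left) and of the adult beta-like genes (right) against the summed CPM of 34 red cell membrane and heme genes; points are libraries, with shape for the replicate and colour for the genotype. On the left the libraries line up from 5C replicate 3 (7321 CPM) to 5C replicate 1 (14080 CPM), and on the right 5C replicate 3 has the highest adult beta-like sum (161 CPM) at the lowest red cell sum.

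Regulators of globin transcription gave no call. Of 15 listed genes, 11 were higher and 4 lower in 5C, with 0 at an unadjusted p under 0.05 in edgeR's test, against 6.02% of all genes, and a median log2 fold change of 0.06. *Klf1*, the erythroid factor that binds CACCC sites, had 19.2, 17.5 and 19.5 CPM in the WT libraries, against 26.5, 16.7 and 16.6 CPM in the 5C libraries. *Gata1*, which drives red cell differentiation, had 11.1, 9.19 and 14.5 CPM in WT replicates 1 to 3, with 17.0, 8.71 and 7.90 CPM in those of 5C. Both were highest in 5C replicate 1 and lowest in 5C replicate 3. *Bcl11a*, a repressor of embryonic beta-like globins that is also expressed in neurons, had WT values of 39.5, 32.2 and 48.8 CPM and 5C values of 35.8, 42.8 and 29.1 CPM, and its highest library was WT replicate 3.

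Listed enzymes of red cells gave small differences. All 5 that passed the count filter, of 7 listed, were higher in 5C, with log2 fold changes of 0.03 to 0.09 and no call at either threshold. The other globin family genes stayed at 3.33 CPM or below. Of 6 listed, *Cygb*, *Hbq1b* and *Mb* passed the count filter and 0 was called. *Hbq1b*, a theta-like gene of the alpha cluster, had 1.89, 0.944 and 1.60 CPM in the WT libraries, against 3.03, 1.02 and 0.498 CPM in the 5C libraries. *Hbb-bh2*, a gene of the beta cluster, ranged from 0.420 to 1.12 CPM in WT and from 0.641 to 1.39 CPM in 5C.

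Genes whose pattern was most like that of the globins were ranked by Pearson's r of log2 CPM over the 6 libraries, as a description. For the summed embryonic genes the 5 highest were *Gm19327* (0.999), *Abcg4* (0.996), *Draxin* (0.992), *Epor* (0.991) and *Msl1* (0.990), and 64 of the 16784 genes tested had an r of at least 0.95. *Epor*, the erythropoietin receptor, had WT values of 11.5, 7.81 and 12.8 CPM and 5C values of 16.8, 10.2 and 6.19 CPM. For the summed adult genes the 5 highest were *Hyal1* (0.988), *Epm2a* (0.987), *Lmo2* (0.980), *Matn2* (0.980) and *Gm16244* (0.972), and 14 genes reached 0.95. These 6 points share library, depth and scaling with the globins they are set against.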

How the data were processed

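The authors made poly(A)-selected stranded libraries, sequenced 40-base single-end reads, aligned them with STAR to GRCm38 and deposited raw counts per Ensembl gene, without normalization. Which strand column was counted is not given in the sources used here. Symbols and transcripts came from GENCODE M21 (55141 of 55401 identifiers found), promoters from RefSeq (GRCm38.p6). Genotypes and replicate numbers came from the sample titles. The globin genes and the other lists were chosen with earlier results of these data known. From the counts, edgeR 4.0.16 in R 4.3.3 kept genes by filterByExpr, scaled by trimmed mean of M values and tested 5C against WT with the legacy quasi-likelihood F-test, two-sided, adjusted by the Benjamini-Hochberg method over 16784 genes. CPM are counts over the scaled total of the tested genes. Sums, shares and ratios were compared by exact permutation tests over libraries (scipy 1.17.1). P-values set the difference between genotypes against the spread between these pools.

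Genes named were the globins, *Mir483*, defining red cell genes, at most 3 genes of smallest p per list, and the 5 most alike. Some members of the marker lists and of the globin family were also named to show what a sum or list holds. 1 listed red cell gene was not analysed here, and the values of 1 other are not reported. Every pair of libraries differed by more than sampling noise (chi-square per gene 5.26 or more), so all 6 were kept as separate samples. Alternatives were other scalings, count filters and tests (DESeq2 1.42.0, limma-voom from limma 3.58.1, robust moderation, edgeR's newer form), a block for the replicate number and each library left out. Counts per window held by 1 gene were added after seeing the data. Scripts were tested on simulated data.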

Additional observations from a re-analysis of the deposited data

How the results depend on the processing

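Across 112 alternative log2 fold changes of the globin genes, 100 kept their direction and their side of the threshold, 11 changed sign and 1 crossed the threshold. The number of globin genes called was 0 under every alternative but that without a count filter, where 33139 genes were tested, 416 were called and 1 globin gene was among them, *Hbb-bs* (log2 fold change 0.65, adjusted p = 2.3e-08 in edgeR's test, with overlapping genotypes); the cause was not tested. In the main comparison 0 genes were called, against 19 by DESeq2, 3 with robust moderation and 0 by limma-voom. *Mir483* passed the threshold without a count filter, with DESeq2, with robust moderation and without 5C replicate 3. Single libraries turned the sign of several values near 0. Leaving out 5C replicate 1 did so for *Hbb-y*, *Hbb-bh1*, *Hba-a1* and *Hba-a2*, WT replicate 2 for *Hbb-bh1* (-0.014) and *Hba-a2* (-0.0037), 5C replicate 3 for *Hbb-bs* and *Hba-x* (0.18), and WT replicate 1 for *Hba-x*, which was also at 0.015 by limma-voom. With 1 library left out, the log2 fold change ranged from -0.17 to 0.33 for *Hbb-y*, from -0.22 to 0.25 for *Hbb-bh1*, from -0.53 to 1.07 for *Hbb-bs*, from -0.48 to 0.44 for *Hba-x*, from -0.053 to 0.24 for *Hba-a1* and from -0.17 to 0.17 for *Hba-a2*. The difference then ranged from -0.20 to 0.27 (log2) for the summed globin level, from -0.351 to 0.428 percentage points for the adult beta-like share, from -2.79 to 3.28 percentage points for the adult alpha-like share, from -0.43 to 0.37 for the log2 alpha-like to beta-like ratio and from -0.089 to 0.050 for the log2 ratio of globins to red cell genes. The adult beta-like share differed by -0.112 percentage points with *Hbb-bt* alone, and the adult alpha-like share by 1.47 percentage points per window held by 1 gene (0.512 with the longer GENCODE transcripts). The ratio to red cell genes differed by 0.038 with the membrane list alone and by 0.023 with equal weight per gene. With the replicate number as a block, 0 genes were called and *Hba-x* was at 0.0069. Same-numbered libraries had correlations of -0.17, 0.20 and -0.17 between their deviations from the genotype means. With 3 libraries per genotype, these values cannot decide whether equal numbers mark littermates, and the sample titles do not say. Few reads distinguish the adult copies, and 3 libraries per genotype limit every comparison.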
